A study of Mus musculus with 20 samples.

Results

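The synaptic vesicle release genes described here are 9 genes that encode the docking, fusion and membrane proteins of the presynaptic vesicle: Snap25, Vamp1, Vamp2 and Stx1a (SNARE proteins), Syt1 and Syt2 (calcium sensors), and Syp, Sv2a and Sv2b (integral vesicle membrane proteins). They were taken by gene symbol from the expression table, in which each of the 9 matched 1 of 45700 genes, and all 9 passed the filter on low values that left 15247 tested genes. RNA was sequenced from whole brains of severe "Taiwanese" spinal muscular atrophy (SMA) mice, which lack mouse Smn and carry the human SMN2 transgene (Smn-/-; SMN2tg/0), and of heterozygous littermates (Smn-/+; SMN2tg/0) used as controls, so that the transgene was present in both groups and both were on a congenic FVB background. The early-symptomatic stage was postnatal day 5, with 2 numbered replicates of each genotype, and the late-symptomatic stage was day 7, with 3 of each. From each genotype and stage, total cytoplasmic RNA pooled from all fractions of a sucrose gradient (RNA-seq, the transcriptome) and RNA pooled from the polysomal fractions alone (POL-seq, the translatome) were measured, which gives 8 groups and 20 libraries. Libraries are called mouse 1, 2 or 3 after the number in their label, and the labels do not state whether a total and a polysomal library with 1 number came from 1 brain. The RNA came from the whole brain and not from motor neurons or nerve terminals. In such bulk RNA, fewer cells of a type and less RNA per cell cannot be told apart.

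At a chemical synapse, transmitter-filled vesicles are docked at the presynaptic membrane and fuse with it when calcium enters. Fusion is driven by the SNARE proteins: synaptobrevin on the vesicle, encoded by Vamp1 or Vamp2, zippers together with syntaxin 1 (Stx1a) and SNAP-25 on the plasma membrane. Synaptotagmins (Syt1, Syt2) sense calcium and couple its entry to fusion, synaptophysin (Syp) is an abundant vesicle protein that binds synaptobrevin, and SV2 proteins (Sv2a, Sv2b) are glycoproteins of the vesicle membrane. The first weeks after birth are the main period of synapse formation in the rodent brain. Vamp2, Syt1 and Sv2a are the widespread forebrain forms, whereas Vamp1 and Syt2 are known for the brainstem, the spinal cord and motor nerve terminals.

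On the mouse genome build GRCm38, the table placed Snap25 on chr2:136713452-136782428, Vamp1 on chr6:125215550-125244543, Vamp2 on chr11:69088489-69092384, Stx1a on chr5:135023481-135051100, Syt1 on chr10:108497649-109010982, Syt2 on chr1:134646676-134955942, Syp on chrX:7638470-7657258, Sv2a on chr3:96181150-96195521 and Sv2b on chr7:75114896-75331419. No 2 of the 9 were neighbours. The promoter windows of Sv2a and Syt1 are shown because these genes rose between the stages in every group and have a window next to the 5′ end given in the table. They are the windows from 250 bases before to 50 bases after the transcription start (RefSeq, GRCm38.p6), on the plus strand of chr3:96180977-96181276 for Sv2a and on the minus strand of chr10:109010926-109011225 for Syt1, written 5′ to 3′, with motif matches in capitals.
Sv2a: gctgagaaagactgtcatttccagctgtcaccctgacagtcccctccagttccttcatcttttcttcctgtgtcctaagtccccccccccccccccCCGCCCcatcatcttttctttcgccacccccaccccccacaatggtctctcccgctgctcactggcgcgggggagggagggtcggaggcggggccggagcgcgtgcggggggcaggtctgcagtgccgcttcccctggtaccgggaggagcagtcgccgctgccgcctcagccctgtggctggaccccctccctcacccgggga
Syt1: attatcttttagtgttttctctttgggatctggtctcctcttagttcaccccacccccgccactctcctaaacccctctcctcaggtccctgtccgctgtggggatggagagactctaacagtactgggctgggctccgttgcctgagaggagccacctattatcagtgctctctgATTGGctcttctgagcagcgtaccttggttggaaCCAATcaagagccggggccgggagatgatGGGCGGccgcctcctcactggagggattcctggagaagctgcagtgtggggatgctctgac
The letters searched on both strands were TATAAA for the TATA element, GGGCGG for the GC box, CCAAT for the box of that name, TGACGTCA for the cAMP response element and TTCAGCACC for the left part of the RE1 element, bound by the neuronal repressor REST, and none of these overlapped another in the windows shown. The Sv2a window held 1 GC box and no other match, and the Syt1 window held 1 GC box and 2 CCAAT boxes. Among all 32851 promoter windows of the same length, 35.7% held a GC box, 37.4% a CCAAT box, 13.6% a TATA element, 1.79% a cAMP response element and 0.371% the RE1 letters. G and C made up 68.0% of the Sv2a window and 56.7% of the Syt1 window, against a median of 52.7% over all windows. Windows were found for 7 of the 9 genes. Sv2b, which rose with them, had 4 windows, the nearest 22156 bases from the 5′ end in the table, and 2 of these held a TATA element. A second Syt1 window, at chr10:109009062-109009361, held none of the letters. These matches describe the letters in the windows alone.

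Levels are given as FPKM, sequenced fragments scaled by transcript length and by the size of the library, so that different genes can be set side by side. Averaged over the 20 libraries, Syp was the most abundant of the 9 genes at 470.5 FPKM, followed by Snap25 at 301.4, Syt1 at 155.1, Sv2a at 126.2, Vamp2 at 123.9, Stx1a at 96.8, Sv2b at 43.5, Vamp1 at 17.4 and Syt2 at 6.19 FPKM. None of the 180 values was 0. Syp, Snap25, Sv2b, Vamp1 and Syt2 held the same rank in each of the 8 groups, and their ranges did not overlap those of the genes next to them in any group. The order in the middle changed with stage: in control total RNA, Vamp2 was the sixth on day 5, at 75.5 ± 3.42 FPKM (SD, n = 2), under Sv2a at 84.0 ± 1.24 and Stx1a at 85.5 ± 2.00, whereas on day 7 it was the fourth, at 163.4 ± 13.1 FPKM (SD, n = 3) and Stx1a was the sixth, at 93.6 ± 4.42. Neighbours whose ranges overlapped on day 7 in control total RNA were Syt1 and Vamp2, and Vamp2 and Sv2a.

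The 9 genes together reached 967.5 ± 9.16 FPKM (SD, n = 2) in control total RNA on day 5 and 1437.7 ± 92.1 (n = 3) on day 7, and 967.4 ± 27.7 and 1401.2 ± 37.7 FPKM in SMA total RNA. In polysomal RNA the sums were 1133.3 ± 64.0 and 1646.4 ± 200.6 FPKM in controls and 1098.2 ± 77.4 and 1677.9 ± 55.9 FPKM in SMA mice. The day 7 sums were above all day 5 sums of the same fraction, and the ranges of control and SMA sums overlapped in each fraction and stage. Snap25 and Syp supplied most of each sum, 59.3% ± 0.48 (SD, n = 2) of it in control total RNA on day 5 and 53.8% ± 0.63 (n = 3) on day 7.

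**Figure D1:**
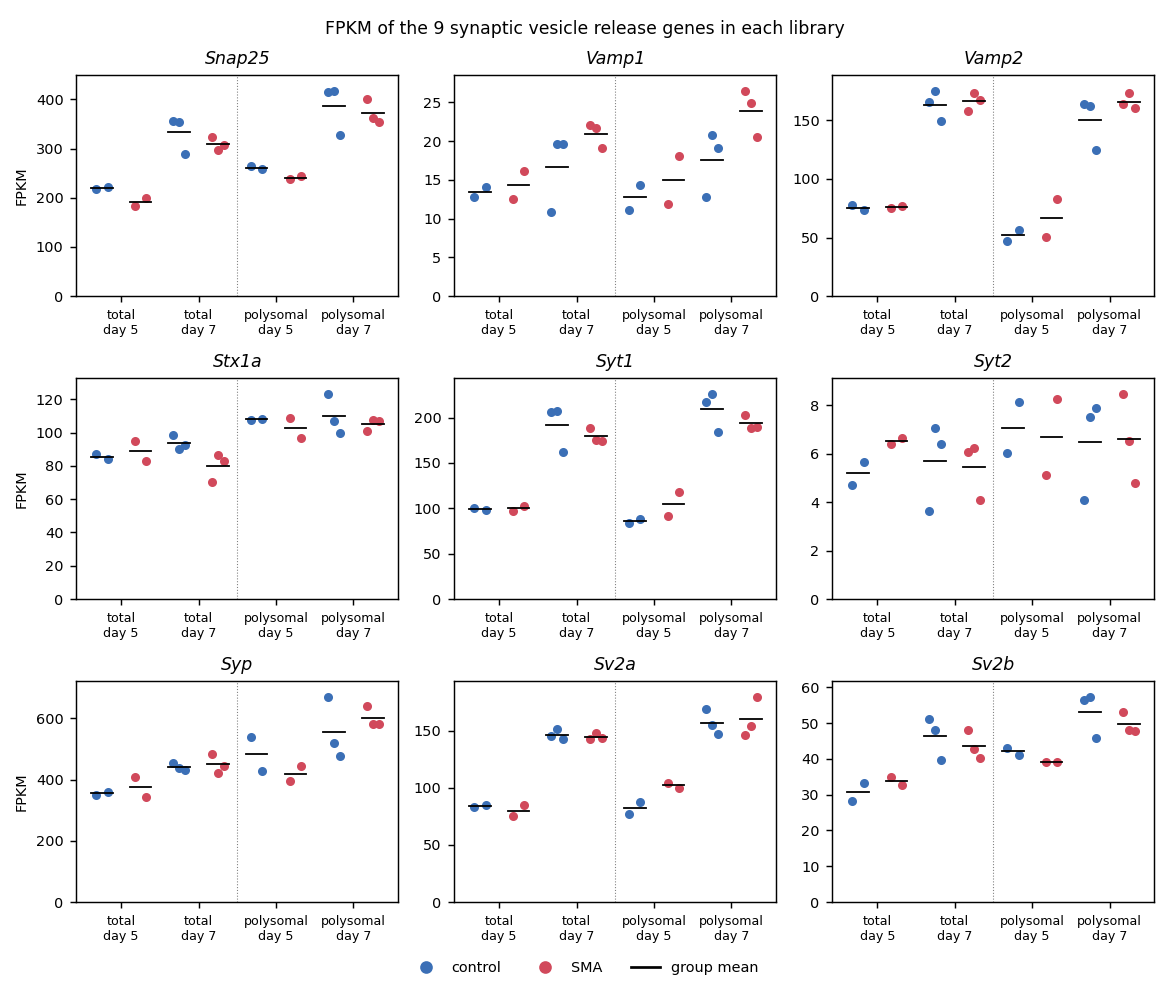
FPKM (y axis, linear from 0, own scale per gene) of the 9 genes by fraction and postnatal day; points are libraries, control in blue and SMA in red, and black lines are group means (2 libraries per group on day 5, 3 on day 7). Vamp2, Syt1 and Sv2a step up between day 5 and day 7 in both genotypes and fractions, whereas Stx1a and Syt2 do not.

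The clearest pattern in these genes was the difference between the stages. Between day 5 and day 7, Vamp2, Syt1, Sv2a, Snap25 and Sv2b were higher in each of the 4 comparisons (control and SMA, total and polysomal RNA) at an unadjusted p under 0.05, the threshold of the study, and their day 7 libraries lay above all day 5 libraries each time. Of all tested genes, 7.94% met both conditions in all 4 comparisons. Within single comparisons the day 7 libraries lay above those of day 5 for 27.6% of all genes in control total, 28.2% in control polysomal, 23.6% in SMA total and 28.6% in SMA polysomal RNA, against 7, 5, 7 and 7 of the 9. Vamp2 rose the most, by 2.16-fold in control total RNA. Syt1 rose by 1.92-fold and Sv2a by 1.75-fold there, and Snap25 and Sv2b by about 1.5-fold. None of the 9 genes was lower on day 7 in any of the 4 comparisons at that threshold.

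Counted over the 9 genes, 6 were higher on day 7 in control total RNA, where 20.1% of all tested genes were called higher, and 5 in control polysomal RNA, against 20.7% of all genes. In SMA mice 6 genes were higher in total RNA (15.7% of all genes) and 7 in polysomal RNA (21.1% of all genes). With p-values adjusted by Benjamini-Hochberg over all tested genes, 5 genes remained called in control total RNA (11.8% of all genes were higher), 3 in control polysomal RNA (12.3%), 4 in SMA total RNA (3.45%) and 6 in SMA polysomal RNA (12.6%). The median log2 change of the 9 genes was 0.58, 0.44, 0.55 and 0.62 in the same order, beside medians of -0.03, -0.03, -0.04 and -0.01 over all tested genes. These shares of called genes in the 9 were above the background in all 4 comparisons. The 9 genes were chosen with earlier results of these data known, so this excess describes them and is not independent support. The 4 comparisons share no libraries, but those of total and polysomal RNA are not independent, because same-numbered libraries deviated together on day 7. The labels record no other difference between day 5 and day 7 libraries. In total RNA, however, 26970 to 28070 genes were above 0 FPKM on day 5 and 23630 to 25060 on day 7. In polysomal RNA these ranges overlapped (24667 to 25975 and 23784 to 24883). The sources used here give no preparation date or sequencing run, so stage and a batch of library making cannot be told apart.

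**Figure D2:**
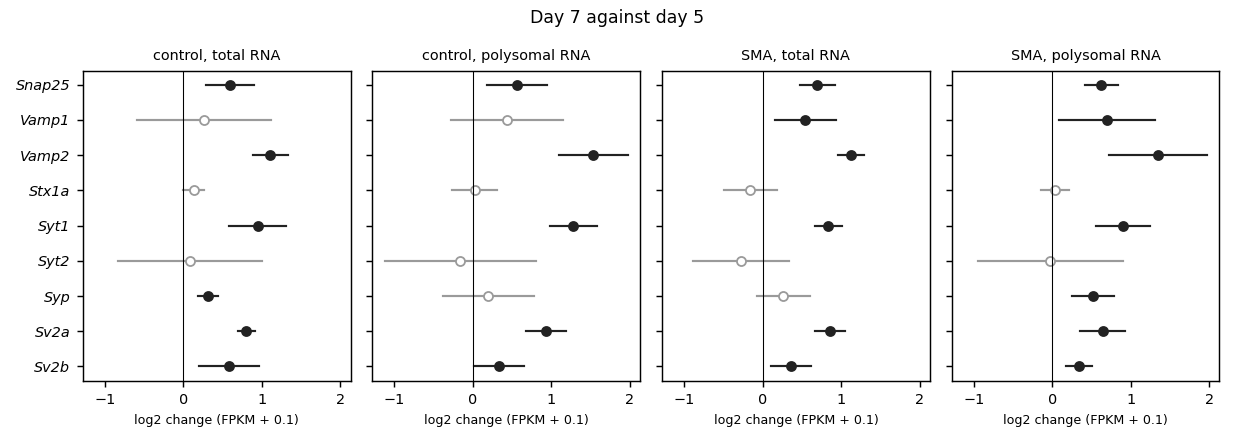
Log2 change from day 5 to day 7 (x axis, on the log2(FPKM + 0.1) scale) of each gene in the 4 comparisons; points are limma estimates, lines their 95% confidence intervals, filled black points have an unadjusted p under 0.05 and open grey points do not. Snap25, Vamp2, Syt1, Sv2a and Sv2b lie to the right of 0 with intervals that leave it out in all 4 panels.

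Among the SNARE proteins, Vamp2, the main synaptobrevin of the forebrain, measured 78.0 and 73.1 FPKM in control total RNA on day 5 and 165.8, 175.2 and 149.2 FPKM on day 7. In SMA total RNA it measured 74.9 and 77.0 FPKM on day 5 and 157.8, 173.6 and 167.2 FPKM on day 7. In both genotypes even the lowest day 7 library was far above the highest day 5 library. The log2 change was 1.11 ± 0.08 (SE) in controls (adjusted p = 0.00985) and 1.13 ± 0.06 in SMA mice (adjusted p = 0.0101). In polysomal RNA the controls went from 47.2 and 56.4 FPKM to 164.1, 162.5 and 125.1 FPKM, a log2 change of 1.53 ± 0.16 (adjusted p = 0.0183). The SMA polysomal libraries went from 50.8 and 83.2 FPKM to 163.7, 173.7 and 160.2 FPKM, a log2 change of 1.35 ± 0.23 (adjusted p = 0.0302). One day 5 SMA polysomal library, that of mouse 2, was higher than the other 3 polysomal libraries of that day.

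Snap25, the plasma membrane partner of syntaxin in the fusion complex, measured 216.9 and 221.7 FPKM in control total RNA on day 5 and 355.7, 354.4 and 288.8 FPKM on day 7. In SMA total RNA it measured 182.2 and 199.8 FPKM and then 324.1, 296.4 and 307.6 FPKM. The stages did not overlap in either genotype, and control mouse 3 was the lowest of the controls on day 7. The log2 change was 0.60 ± 0.11 in controls (adjusted p = 0.0353) and 0.70 ± 0.08 in SMA mice (adjusted p = 0.0346). In polysomal RNA the changes were 0.56 ± 0.14 in controls (adjusted p = 0.0587) and 0.62 ± 0.08 in SMA mice (adjusted p = 0.0207). The call in control polysomal RNA was lost when either day 5 library was left out, with log2 changes of 0.58 and 0.54.

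Stx1a, the syntaxin of the complex, did not follow its partners. It measured 86.9 and 84.1 FPKM in control total RNA on day 5 and 98.5, 89.9 and 92.4 FPKM on day 7, and 95.0 and 83.0 FPKM and then 70.1, 86.7 and 82.8 FPKM in SMA total RNA. The control stages stood apart by a small step, and the SMA stages overlapped. The log2 change was 0.13 in controls (95% confidence interval -0.01 to 0.27) and -0.16 in SMA mice (-0.50 to 0.18), and in polysomal RNA it was 0.02 (-0.26 to 0.30) and 0.03 (-0.15 to 0.22). These intervals leave out rises as large as those of Vamp2 and of Snap25 (0.56 to 0.70) but not changes within their limits.

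The calcium sensors are a pair of synaptotagmins, whose changes were not tested against each other. Syt1, the fast calcium sensor of forebrain synapses, measured 100.2 and 97.7 FPKM in control total RNA on day 5 and 205.8, 207.8 and 161.6 FPKM on day 7, and 97.6 and 102.9 and then 188.8, 175.8 and 173.8 FPKM in SMA total RNA. The stages were well apart in both genotypes, with a log2 change of 0.94 ± 0.13 in controls (adjusted p = 0.022) and 0.84 ± 0.07 in SMA mice (adjusted p = 0.0231). In polysomal RNA Syt1 rose from 83.9 and 87.9 FPKM to 217.6, 226.1 and 184.2 FPKM in controls, by 1.28 ± 0.11 (adjusted p = 0.0141). The SMA polysomal libraries rose from 91.4 and 117.8 FPKM to 203.1, 188.1 and 190.0 FPKM, by 0.90 ± 0.13 (adjusted p = 0.0231). The difference between the genotypes in this rise was -0.38 ± 0.18 on the log2 scale and was not called (adjusted p = 0.385).

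Syt2, the sensor known for brainstem and motor synapses, was low and spread widely. It measured 4.73 and 5.65 FPKM in control total RNA on day 5 and 3.63, 7.05 and 6.40 FPKM on day 7, and 6.39 and 6.67 and then 6.08, 6.22 and 4.11 FPKM in SMA total RNA. The control stages overlapped, and control mouse 1 of day 7 held the lowest value of all. The log2 change was 0.08 in controls (95% confidence interval -0.83 to 1.00) and -0.27 in SMA mice (-0.88 to 0.33). In polysomal RNA the interval ran from -1.13 to 0.80 in controls and from -0.94 to 0.90 in SMA mice, so that these data allow a halving of Syt2 in control polysomal RNA and changes nearly as large in the other groups.

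Vamp1, the synaptobrevin known for caudal and motor neurons, measured 12.8 and 14.1 FPKM in control total RNA on day 5 and 10.8, 19.6 and 19.6 FPKM on day 7. In SMA total RNA it measured 12.6 and 16.2 FPKM and then 22.0, 21.7 and 19.1 FPKM. The SMA stages did not overlap, whereas among the controls mouse 1 of day 7 lay under both day 5 libraries. In SMA mice Vamp1 was higher on day 7 by 0.55 ± 0.14 in total RNA (adjusted p = 0.0904) and by 0.69 ± 0.22 in polysomal RNA (adjusted p = 0.0945). In controls the log2 change was 0.26 ± 0.31 in total RNA (adjusted p = 0.576) and 0.44 ± 0.26 in polysomal RNA (adjusted p = 0.276). The difference between the genotypes was 0.29 in total RNA (adjusted p = 0.748) and 0.26 in polysomal RNA (adjusted p = 0.766), so that the rise was not shown to differ between them. Without control mouse 1 the change in controls was 0.54 in total RNA (adjusted p = 0.0623) and 0.65 in polysomal RNA (adjusted p = 0.108), both past the unadjusted threshold. The SMA total RNA call was lost without mouse 1 (0.51) or mouse 2 (0.52) of day 7, and the SMA polysomal call without mouse 1 of day 5 (0.40), or mouse 1 (0.62) or mouse 2 (0.66) of day 7.

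Of the vesicle membrane proteins, Sv2a, the form present on nearly all vesicles of the brain, measured 83.1 and 84.9 FPKM in control total RNA on day 5 and 145.6, 151.8 and 142.8 FPKM on day 7, and 75.3 and 84.8 and then 143.2, 147.8 and 144.2 FPKM in SMA total RNA. The day 7 libraries of both genotypes formed a tight group well above day 5. The log2 change was 0.80 ± 0.04 in controls (adjusted p = 0.00523) and 0.86 ± 0.07 in SMA mice (adjusted p = 0.024), and in polysomal RNA 0.93 ± 0.09 (adjusted p = 0.0172) and 0.64 ± 0.10 (adjusted p = 0.0282). Sv2b, its paralogue of more restricted expression, measured 28.4 and 33.1 FPKM and then 51.1, 48.0 and 39.8 FPKM in control total RNA, and 35.0 and 32.8 and then 48.2, 42.8 and 40.2 FPKM in SMA total RNA. Its stages did not overlap, and its log2 changes were smaller, at 0.58 ± 0.14 in controls and 0.36 ± 0.10 in SMA mice in total RNA and 0.33 ± 0.12 and 0.34 ± 0.06 in polysomal RNA. Of these 4 values for Sv2b, the SMA polysomal one passed adjustment (adjusted p = 0.0322). The control total call was lost without control mouse 1 of day 5 (0.47), the SMA total call without SMA mouse 2 of day 5 (0.32), and the control polysomal call without either day 5 library (0.36 and 0.30) or without mouse 1 or 2 of day 7 (0.29 and 0.27).

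Syp, the most abundant of the 9, measured 350.1 and 359.6 FPKM in control total RNA on day 5 and 453.8, 437.4 and 430.8 FPKM on day 7, a rise of 0.31 ± 0.05 (adjusted p = 0.0244) with no overlap. In SMA total RNA it measured 408.1 and 344.6 FPKM and then 484.0, 423.2 and 446.2 FPKM, a log2 change of 0.26 ± 0.12 (adjusted p = 0.225). In polysomal RNA the controls measured 538.3 and 426.8 FPKM on day 5 and 670.5, 518.6 and 476.5 FPKM on day 7, so that the stages overlapped (0.20 ± 0.21, adjusted p = 0.524). The SMA polysomal libraries measured 394.1 and 445.5 FPKM and then 639.2, 581.3 and 582.1 FPKM, a rise of 0.52 ± 0.10 (adjusted p = 0.0354). After quantile normalization of the libraries this last change was 0.11 (adjusted p = 0.51).

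The ratios within the paralogue pairs were also compared between the stages, without a test. The ratio of Vamp2 to Vamp1 was 5.65 ± 0.66 (SD, n = 2) in control total RNA on day 5 and 10.6 ± 4.09 (n = 3) on day 7, and 5.36 ± 0.84 and 7.99 ± 0.81 in SMA total RNA. The ratio of Syt1 to Syt2 was 19.2 ± 2.75 and 37.1 ± 17.1 in controls, and 15.4 ± 0.11 and 33.9 ± 7.43 in SMA mice. The wide spread of both control ratios on day 7 came with mouse 1, in which Vamp2 was 15.3 times Vamp1 and Syt1 56.7 times Syt2. The ratio of Sv2a to Sv2b moved least, from 2.75 ± 0.26 to 3.20 ± 0.37 in controls and from 2.37 ± 0.30 to 3.34 ± 0.32 in SMA mice.

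Both libraries numbered 1 of the day 7 controls stood apart in regional genes. Slc6a5, the glycine transporter of brainstem and spinal cord neurons, measured 0.13 FPKM in its total and 0.15 FPKM in its polysomal library, against 1.2 to 4.78 FPKM in the other 18 libraries, and the hindbrain gene Hoxa2 was listed at 0 in both. A list of 7 brainstem and caudal neuron genes, chosen after the data were seen (3 of them tested, none called in any comparison), summed to 1.11 and 1.23 FPKM there and to between 3.88 and 15.6 FPKM in the others. The 6 oligodendrocyte markers (Mbp the most abundant, none at 0) summed to 153.3 and 177.9 FPKM in this mouse and to between 379.0 and 451.4 FPKM in the other control libraries of day 7. On day 5 the libraries numbered 1 of both genotypes and fractions summed to 137.0 to 176.4 FPKM, and those numbered 2 to 274.3 to 306.9 FPKM. Their caudal neuron sums were 4.55 to 7.43 and 11.7 to 15.6 FPKM. Vamp1 measured 11.2 to 12.8 FPKM in the former and 14.1 to 18.1 FPKM in the latter, and Syt2 4.73 to 6.39 and 5.65 to 8.27 FPKM. SMA mouse 3 of day 7 had the next lowest sums of caudal neuron genes, 4.08 and 3.88 FPKM, and Syt2 values of 4.11 and 4.78 FPKM. Over the 20 libraries, which share stages, the Pearson correlation of Vamp1 was 0.90 with the oligodendrocyte sum and 0.376 with the caudal neuron sum, and that of Syt2 was 0.666 and 0.741. These were not the highest values between members and marker sums: Snap25 reached 0.97 with the microglial sum, which was also higher on day 7. The part that the share of brainstem tissue or myelin in each sample had in the Vamp1 and Syt2 values was not tested.

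**Figure D3:**
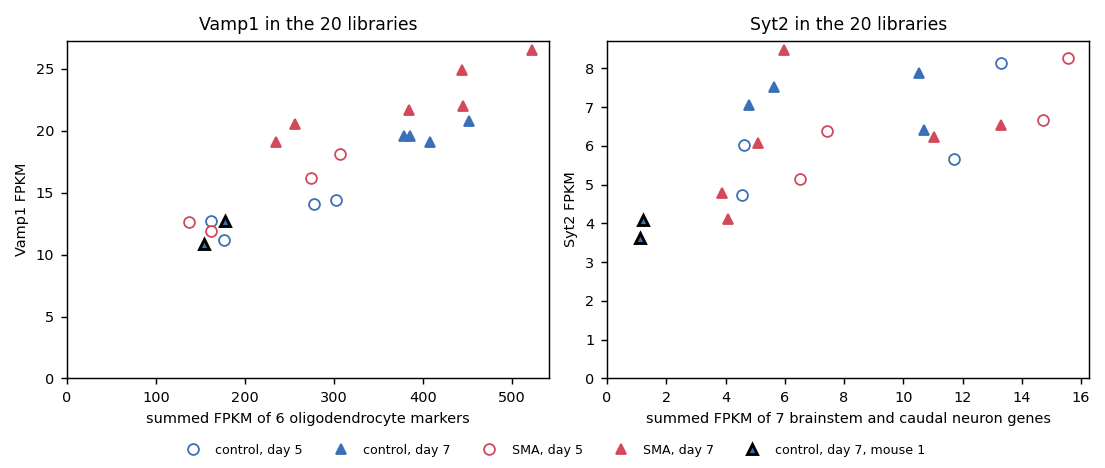
Left, Vamp1 FPKM (y axis) against the summed FPKM of 6 oligodendrocyte markers (x axis); right, Syt2 FPKM against the summed FPKM of 7 brainstem and caudal neuron genes; each point is 1 of 20 libraries, with day 5 open and day 7 filled, control blue and SMA red. Both libraries of control mouse 1 of day 7 (black outlines) lie at the low end of both axes.

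The tissue label was checked against cell type markers. Of the 7 neuronal markers, Tubb3, the most abundant, was listed at 0 in both control polysomal libraries of day 5 and at 562 to 1051 FPKM in the other 18 libraries. Without it, the other 6 neuronal markers summed to 586.6 and 586.5 FPKM in control total RNA on day 5 and 734.0, 721.2 and 708.7 FPKM on day 7, and to 666.6 and 668.1 and then 724.7, 748.0 and 739.3 FPKM in SMA total RNA. The neuronal sum was thus also higher on day 7, while its rise was smaller than that of Vamp2, Syt1 or Sv2a in the same libraries. Of the neuronal markers, 4 of 7 were called higher on day 7 in control total RNA and 3 of 7 in SMA total RNA, with medians of 0.30 and 0.15 on the log2 scale. The 6 markers of progenitors and immature neurons (Dcx the most abundant, none at 0) had median changes of -0.35 in controls and -0.38 in SMA mice, with 1 called lower in each. Astrocyte markers (6 genes, Slc1a2 the most abundant) summed to 305 to 626 FPKM, oligodendrocyte precursor markers (4 genes, Olig1) to 60.3 to 86.1 FPKM, microglial markers (5 genes, P2ry12) to 35.0 to 77.6 FPKM and erythroid markers (4 genes, Hba-a1) to 908 to 4032 FPKM, with no gene of these lists at 0. In control total RNA the counts higher and lower on day 7 were 2 and 0 for astrocytes, 0 and 0 for oligodendrocytes, 1 and 0 for their precursors, 4 and 0 for microglia, 1 and 0 for erythroid cells and 0 and 2 for endothelium. The part of the neuronal share in the rise of the vesicle genes was not tested.

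The other genes of the presynaptic terminal were followed with a list of 83 genes, of which 82 were in the table and all 82 were tested. In control total RNA 52 of them were higher and 5 lower on day 7, and in control polysomal RNA 43 were higher and 6 lower. In SMA mice 30 were higher and 8 lower in total RNA, and 45 higher and 7 lower in polysomal RNA. Of all genes, 20.1%, 20.7%, 15.7% and 21.1% were called higher in these 4 comparisons, in that order, and 20.1%, 21.4%, 17.0% and 19.9% lower. Among the largest rises were those of Prrt2, a synaptic protein that binds SNAP-25 (1.39 and 1.88 on the log2 scale in control total and polysomal RNA, 0.98 and 1.69 in SMA), and Slc17a7, the vesicular glutamate transporter VGLUT1 (1.31 and 1.57, 1.11 and 1.34). Syn1, which tethers vesicles, rose by 1.03 in control total RNA, Pclo, a scaffold of the active zone, by 1.44 in control polysomal RNA, and Rab3a, the vesicle GTPase, by 0.85 and 1.11 in control and by 1.07 and 1.15 in SMA total and polysomal RNA. Syn1 and Pclo were higher in the other comparisons too (0.63 to 1.35 and 0.44 to 0.87). Snap23, the widespread non-neuronal homologue of Snap25, was lower in control polysomal RNA (-0.63) and in SMA total and polysomal RNA (-0.81 and -0.62). Cask, a scaffold of the presynaptic membrane, was lower in all 4 comparisons (-0.42 and -0.29 in control total and polysomal RNA, -0.50 and -0.34 in SMA). Slc17a8, the vesicular glutamate transporter VGLUT3, was lower in control total and polysomal RNA (-0.36 and -0.55) and in SMA total RNA (-0.55). Stx4a was lower in control total and SMA polysomal RNA (-0.54 and -0.32), Itsn1, an endocytic scaffold, in control and SMA total RNA (-0.22 and -0.53), Syt12 and Cltb in control polysomal RNA (-0.79 and -0.62), Unc13a in SMA total RNA (-0.67) and Stx3 in SMA polysomal RNA (-0.35), and Unc13b, a priming factor, was lower in SMA total and polysomal RNA (-0.77 and -0.54). The rise was therefore shared by many genes of this list, chosen with earlier results of these data known, and not by all of them.

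By role, 11 of 13 other vesicle membrane protein genes were higher on day 7 in control total RNA, 7 in control polysomal RNA and 10 in each SMA fraction, and none was lower. Of 11 other calcium sensors, 8, 8, 6 and 8 were higher and at most 1 lower. Of 8 other SNARE genes, 4, 2, 3 and 3 were higher and 1, 1, 1 and 3 lower. Among 16 regulators of SNARE assembly, priming and disassembly, 9, 8, 5 and 10 were higher and 1, 1, 3 and 2 lower. Among 6 vesicular transmitter transporters 2 were higher in each comparison, and 1 was lower in each but SMA polysomal RNA, where none was. The 16 active zone genes showed 10 and 10 higher and 1 and 1 lower in the control fractions, and 2 and 6 higher and 2 and 2 lower in the SMA fractions. Of the 12 endocytosis genes 8 and 6 were higher and 1 and 1 lower in controls, and 2 and 6 were higher and 1 and 0 lower in SMA mice. When the difference between genotypes in the day 5 to day 7 change was itself tested, 16 of the 82 genes were called in total RNA, 15 of them with a smaller or more negative change in SMA, where 5.60% of all genes were called in that direction. In polysomal RNA 15 were called, 13 of them in that direction, against 6.86% of all genes. Among them, 7 active zone genes in total RNA and 8 in polysomal RNA had a smaller or more negative change in SMA, with none called in the other direction, and none of the 82 genes passed adjustment. Over all genes this difference ran with transcript length (Spearman rho -0.378 in total and -0.343 in polysomal RNA, over 15162 genes), and the part that length had in these counts was not tested.

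The genes outside these lists whose levels most resembled the mean of the 9 genes over the 20 libraries were Ppp3r1, a calcineurin subunit (Pearson r = 0.967), Atp6v1b2, a subunit of the vacuolar proton pump (0.964), Ppt1, a lysosomal thioesterase (0.962), Serinc3 (0.961) and Got1, the cytosolic aspartate aminotransferase (0.959), out of 14203 genes compared. The correlation of each member with the mean, of which it is itself a part, was 0.94 for Snap25, 0.91 for Sv2b, 0.89 for Sv2a and Syt1, 0.82 for Syp, 0.80 for Vamp2, 0.68 for Vamp1, 0.35 for Stx1a and 0.17 for Syt2. Between pairs of members the correlation ranged from -0.23 to 0.96 over 36 pairs, with the highest value for Vamp2 and Syt1. These libraries share stages, so that genes higher on day 7 would tend to score highly.

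The comparison of SMA with control mice gave few differences. In total RNA on day 5 none of the 9 genes was called, while 8.25% of all tested genes were. In polysomal RNA on day 5 Sv2a was higher in SMA mice, at 104.1 and 100.2 FPKM against 77.5 and 87.8 FPKM in controls, and was the only one of the 9 called, against 12.5% of all genes. Its log2 change was 0.31 ± 0.09 (adjusted p = 0.392). The groups did not overlap, as was the case for 4 of the 9 genes (Snap25, Syt1 and Sv2b besides) and for 50.5% of all genes with 2 libraries against 2. In total RNA on day 7 Stx1a was lower in SMA mice, at 70.1, 86.7 and 82.8 FPKM against 98.5, 89.9 and 92.4 FPKM, and was the only one called, against 9.54% of all genes. Its log2 change was -0.23 ± 0.09 (adjusted p = 0.52), and the groups did not overlap, as for 15.0% of all genes. In polysomal RNA on day 7 none was called, against 10.7% of all genes. No member passed adjustment in any of the 4 comparisons, and counts of 0 or 1 of 9 are near the background shares.

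Both single calls depended on the libraries used. The Sv2a call was lost without control mouse 1 (0.22), SMA mouse 1 (0.28) or SMA mouse 2 (0.34), and with equal medians, the length correction or the replicate block. Over all settings its log2 change ran from 0.28 to 0.44. The Stx1a call was lost when any library except that of SMA mouse 2 was left out, and also with no filter, equal medians, no variance trend or the replicate block. Over all settings the Stx1a change stayed between -0.26 and -0.22. The change without SMA mouse 1, the lowest library, was -0.14. The largest log2 change on day 7 that was not called was that of Vamp1 in polysomal RNA, at 26.5, 24.9 and 20.5 FPKM in SMA mice against 12.8, 20.8 and 19.1 FPKM in controls (0.47, 95% confidence interval -0.08 to 1.01). Without control mouse 1 it was 0.26 (adjusted p = 0.469). In total RNA on day 7 the Vamp1 change was 0.37 (adjusted p = 0.687), and 0.09 without that mouse.

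The intervals on day 7 bound the difference for the more abundant members. In total RNA the log2 change was -0.02 for Sv2a (95% confidence interval -0.10 to 0.07), 0.03 for Syp (-0.13 to 0.19), 0.03 for Vamp2 (-0.16 to 0.21), -0.09 for Syt1 (-0.37 to 0.20) and -0.10 for Snap25 (-0.35 to 0.15). In polysomal RNA the intervals of some were wider, as for Syp (-0.24 to 0.50) and Vamp2 (-0.15 to 0.45). For Syt2 the interval ran from -0.82 to 0.77 in total RNA and from -0.82 to 0.90 in polysomal RNA, too wide to bound a difference of either sign closely. The median over the 9 genes was 0.06, -0.07, -0.03 and 0.02 in total RNA on day 5, polysomal RNA on day 5, total RNA on day 7 and polysomal RNA on day 7, beside 0.01, -0.01, 0 and 0 over all tested genes. Endothelial markers, by contrast, were lower in SMA mice: 4 of 4 genes were called lower in total RNA on day 5 and in both fractions on day 7, and 2 of 4 in polysomal RNA on day 5. The 4 genes, of which Cldn5 was the most abundant, summed to 28.5 and 27.3 FPKM in SMA total RNA on day 5 against 66.7 and 58.4 FPKM in controls, and to 21.9, 25.4 and 22.1 FPKM against 37.3, 43.0 and 49.5 FPKM on day 7. The part of this difference in cell makeup in the levels of the vesicle genes was not tested.

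**Figure D4:**
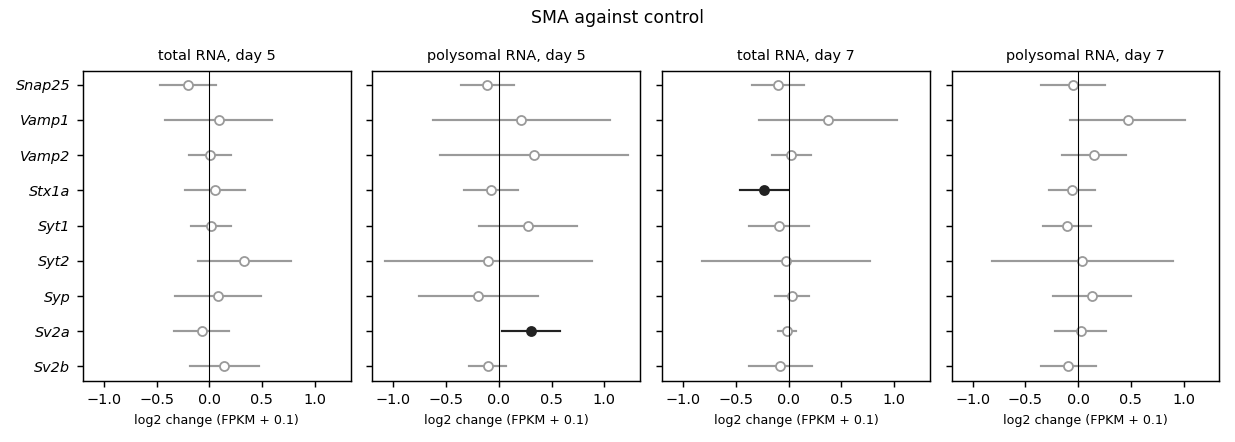
Log2 change in SMA against control mice (x axis, on the log2(FPKM + 0.1) scale) of each gene by stage and fraction; points are limma estimates with 95% confidence intervals, filled black where the unadjusted p is under 0.05. Filled points appear for Sv2a in polysomal RNA on day 5 and for Stx1a in total RNA on day 7.

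Among the other 82 presynaptic genes, 7 were higher and none lower in SMA total RNA on day 5, 8 higher and 2 lower in polysomal RNA on day 5, 2 higher and 3 lower in total RNA on day 7, and 6 higher and 1 lower in polysomal RNA on day 7. In either direction these were 8.54%, 12.2%, 6.1% and 8.54% of the 82 genes, near or under the shares of all tested genes given above for the same comparisons, although 58 of the 82 had a log2 change above 0 in total RNA on day 5. By role, the calls on day 5 included 3 of 16 active zone genes in total RNA and 5 of 16 in polysomal RNA, all higher, with medians of 0.31 and 0.33, and on day 7 the active zone genes had medians of 0 and -0.07. None of the 82 passed adjustment. On day 5 genes with large changes were the calcium channel gene Cacna1b (0.51), Unc13b (0.50) and the active zone scaffold Rims1 (0.40) in total RNA, and the active zone scaffolds Bsn (0.68) and Pclo (0.59) in polysomal RNA. Nsf, the ATPase that takes SNARE complexes apart, was lower in SMA polysomal RNA on day 5 (-0.33), as was the vesicle protein gene Synpr (-0.29). Over all genes the day 5 difference ran with transcript length (Spearman rho 0.393 in total and 0.31 in polysomal RNA), with values near 0 on day 7 (-0.034 and -0.065), and the part of length in these genes was not tested. On day 7 Slc17a6, the vesicular glutamate transporter VGLUT2, and Syt9 were higher in total RNA (0.25 and 0.24) and Snap23, Unc13b and Bin1 lower (-0.44, -0.31 and -0.13). In polysomal RNA Slc18a3, the vesicular acetylcholine transporter, Rims3 and Sncb were higher (0.39, 0.34 and 0.24) and Itsn1 lower (-0.16).

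The difference between genotypes in the change from day 5 to day 7 was called for none of the 9 genes, in total RNA (10.1% of all genes called) or in polysomal RNA (13.7%). The values nearest to the threshold were those of Syt1 (-0.38, adjusted p = 0.385) and Sv2a (-0.29, adjusted p = 0.419) in polysomal RNA and of Stx1a (-0.29, adjusted p = 0.489) in total RNA. Their unadjusted p-values, on which the calls rest, were 0.0665, 0.0915 and 0.0816. Syt1 and Sv2a were called in polysomal RNA with quantile normalization (-0.53 and -0.45) and with 1 model over all libraries (-0.38 and -0.29), and Stx1a in total RNA with quantile normalization (-0.37) and the length correction (-0.40). With 1 library left out at a time, the Syt1 value in polysomal RNA ran from -0.56 to -0.20, and it was called without SMA mouse 1 of day 5 (-0.56) and without control mouse 3 of day 7 (-0.47). Sv2a was called without SMA mouse 3 of day 7 (-0.37), and Syp, in the other direction, without control mouse 1 of day 7 (0.47). In total RNA, leaving out SMA mouse 2 of day 5 gave calls for Stx1a (-0.39) and Sv2a (0.14), leaving out SMA mouse 2 of day 7 one for Stx1a (-0.35), and leaving out control mouse 3 of day 7 one for Syt1 (-0.22). None of these passed adjustment. These contrasts share their day 5 and day 7 libraries with the comparisons above.

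How the 9 messages were divided between total and polysomal RNA was compared next, with both genotypes in 1 fit per stage. On day 5 Snap25, Stx1a, Syp and Sv2b were higher in polysomal RNA, 4 of 9, where 20.0% of all tested genes were called higher, and 3 of them after adjustment, where 9.29% of all genes were. On day 7 Sv2a joined them, 5 of 9 against 26.4% of all genes, and 3 passed adjustment against 19.5%. No member was called lower, where 18.5% of all genes were on day 5 and 15.8% on day 7, although Vamp2 on day 5 was called lower with quantile normalization (-0.49), the length correction (-0.45) and 1 model over all libraries (-0.39). The log2 changes on day 5 were 0.29 ± 0.05 for Snap25 (adjusted p = 0.0193), 0.27 ± 0.07 for Stx1a (adjusted p = 0.0364), 0.33 ± 0.08 for Sv2b (adjusted p = 0.0328) and 0.30 ± 0.12 for Syp (adjusted p = 0.118). On day 7 they were 0.24 ± 0.08 for Snap25 (adjusted p = 0.0346), 0.32 ± 0.07 for Stx1a (adjusted p = 0.00587) and 0.37 ± 0.08 for Syp (adjusted p = 0.00551), with 0.19 ± 0.08 for Sv2b (adjusted p = 0.0842) and 0.12 ± 0.05 for Sv2a (adjusted p = 0.11) past the unadjusted threshold alone. With libraries left out, the day 7 call was kept in 7 of 13 fits for Sv2b (0.15 to 0.24) and in 3 of 13 for Sv2a (0.08 to 0.14). The day 5 call of Syp was lost in most such fits (0.20 to 0.37). The other calls of both stages held in every such fit.

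Between libraries of the same number, the log2 ratio of polysomal to total FPKM was above 0 in all 10 pairs for Snap25 (0.19 to 0.39), Stx1a (0.11 to 0.52) and Sv2b (0.14 to 0.60), and in 9 of 10 for Syp, Sv2a and Syt2. It was above 0 in 7 of 10 for Syt1 and Vamp1. For Vamp2 it was above 0 in 3 of 10, the lowest count of the 9 genes, with values of -0.72 and -0.38 in controls and -0.56 and 0.11 in SMA mice on day 5, and -0.01, -0.11 and -0.25 in controls and 0.05, 0 and -0.06 in SMA mice on day 7, where the value of 0 stands for 173.65 against 173.63 FPKM. The Vamp2 log2 change was -0.39 ± 0.17 on day 5 (adjusted p = 0.143) and -0.06 ± 0.07 on day 7 (adjusted p = 0.537). With 1 library left out at a time, the day 5 change ran from -0.56 to -0.28. The lowest value came without the polysomal library of SMA mouse 2, the 1 library above 0 at that stage. With the mouse taken as a block, which the day 7 libraries allow because libraries of the same number deviated together, 8 of 9 genes were higher in polysomal RNA on day 7, all but Vamp2 (-0.06), where 31.5% of all genes were called higher with the same block.

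**Figure D5:**
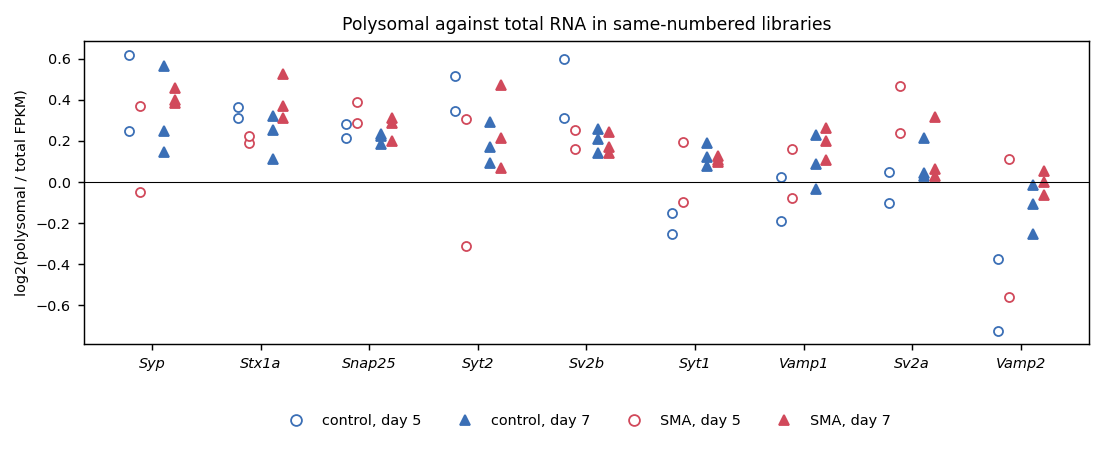
Log2 ratio of polysomal to total FPKM (y axis) for each gene, from libraries with the same number; open circles are day 5 and filled triangles day 7, control in blue and SMA in red, with genes ordered by their median. Vamp2, at the right, has 3 of 10 values above 0, 1 of them by less than the width of a point, whereas Snap25, Stx1a and Sv2b have 10 of 10.

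Whether the polysomal share changed between stages was added as a comparison after these values were seen. None of the 9 genes was called (14.1% of all genes were), and the largest change was that of Vamp2, 0.32 ± 0.16 (adjusted p = 0.399). With libraries left out it ran from 0.14 to 0.50, the highest value without the polysomal library of SMA mouse 2 of day 5. With quantile normalization and with the replicate block, Vamp2 and Syt1 were called. Over all settings their changes ran from 0.27 to 0.42 and from 0.14 to 0.31. Of the other 82 presynaptic genes, 22 were called for this change between stages (26.8%), 19 of them higher, and 1, the synuclein gene Sncb, passed adjustment (0.57, adjusted p = 0.0417). It is named for that count, after its value was seen. Over all genes this change between stages ran with transcript length (Spearman rho 0.217). The part that length had in these counts was not tested. Within the stages, 23 of the 82 were higher and 14 lower in polysomal RNA on day 5 and 43 higher and 4 lower on day 7, beside the shares of all genes given above, and 11 of 12 endocytosis genes were among those higher on day 7.

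The change in translation efficiency (TE), the difference between SMA and control mice in the log2 ratio of polysomal to total RNA, was called for 1 of the 9 genes on day 5, against 2.32% of all genes, and for none on day 7, against 2.07%. The gene was Sv2a, whose log2 ratios were 0.47 and 0.24 in SMA mice and -0.10 and 0.05 in controls on day 5. Its TE change was 0.38 ± 0.13, it did not pass adjustment (adjusted p = 1), and it shares its polysomal libraries with the Sv2a difference between genotypes given above. The call was lost when 6 of the 8 libraries were left out in turn, with values between 0.29 and 0.41, and also with equal medians, the length correction or the replicate block. Over all settings the Sv2a TE change on day 5 ran from 0.38 to 0.48. On day 7 the Sv2a TE change was 0.04 (95% confidence interval -0.20 to 0.28). Of the other 82 presynaptic genes 1 had a lower TE on day 5 and none had a changed TE on day 7.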

How the data were processed

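Total cytoplasmic and polysomal RNA of 20 libraries (TruSeq Stranded Total RNA, 100 bp reads) had been aligned to GRCm38.p4 with TopHat2 2.0.14 and quantified with Cufflinks 2.2.1 on Gencode M6, per the labels and the methods. The deposited table holds the authors' FPKM per gene and library, which differ in total from library to library. It gives no counts, and the mapped reads per library that accompany the paper were not used here, so no depth or counting interval is given. The tests measure the spread between samples, 2 or 3 mice per group.

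The 9 genes and the lists were chosen with earlier results of these data known. Values were tested as log2(FPKM + 0.1), for the 15247 genes whose mean reached 1 FPKM, with limma 3.58.1 (empirical Bayes with a variance trend, R 4.3.3). Each test was fitted on the groups compared: 2 groups for genotype within fraction and stage and for stage within genotype and fraction, and 4 groups for TE, stage by genotype and fraction. CuffDiff and Xtail, which the study used, need reads or counts. Calls use an unadjusted p under 0.05, as the study did, with Benjamini-Hochberg values over all tested genes beside them. Fold changes are on the log2(FPKM + 0.1) scale and understate those of low genes. The procedure was checked on simulated data.

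All 9 genes are described in full. Other presynaptic genes were named where they had the 3 largest changes per comparison and direction among those called with groups that did not overlap. Vamp7, on the list, was not analysed here. One gene that this rule names is not reported here. The 5 most similar genes were ranked by Pearson correlation among genes above 0 in every library. Whether numbers pair libraries was checked by correlating deviations from group means over genes. Same-numbered total and polysomal libraries correlated at 0.16 to 0.45 on day 7 (6 pairs, all over 0.1) and 0.10 to 0.21 on day 5. The labels do not say that they came from the same brain. Other pairs correlated at -0.36 to 0.07. Taking deviations from group means makes these the negatives of the same-numbered values on day 5 and ties them to those on day 7. They are therefore no separate evidence of pairing. Control and SMA libraries of the same number correlated at -0.14 to 0.10 and were not paired in the main tests. Alternatives were other pseudocounts, filters, scalings, a length correction, no variance trend, 1 model over all libraries, a replicate block and leaving out libraries.

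The list of caudal neuron genes, the comparison of polysomal shares between stages and the fits without both libraries of control mouse 1 of day 7 were chosen after seeing the data.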

Additional observations from a re-analysis of the deposited data

Results flagged for a closer look

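For Sv2a on day 5 the genotype effect differed between the fractions: the change in TE was 0.38 on the log2 scale (past the unadjusted threshold, adjusted p = 1 with limma and Benjamini-Hochberg adjustment), from SMA against control log2 changes of -0.07 in total RNA and 0.31 in polysomal RNA. Single libraries were not tested against the rest of their group, because groups held 2 or 3 libraries.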

How the results depend on the processing

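With settings other than leaving out libraries, 1305 of 1350 values of single genes kept their side of the threshold, 25 lost and 20 gained a call, and no call reversed. Of those 1305, 34 were uncalled both times and had another sign. With libraries left out, 1024 of 1107 kept their side of the threshold, 49 lost and 34 gained a call, and no call reversed. Of those 1024, 105 were uncalled both times and had another sign. The calls of Sv2a in SMA polysomal RNA and in TE on day 5 went from 1 to 0 with adjusted p-values, equal medians, the length correction and the replicate block. The call of Stx1a in SMA total RNA on day 7 went from 1 to 0 with adjusted p-values, no filter, equal medians, no variance trend and the replicate block. Polysomal against total RNA on day 7 went from 5 genes to 3 with adjusted p-values, quantile normalization and the length correction, and to 8 with the replicate block. The stage count in control polysomal RNA was 3 with adjusted p-values. The difference in stage change between genotypes gained Stx1a in total RNA with quantile normalization and the length correction (1 gene), and Syt1 and Sv2a in polysomal RNA (2 genes) with quantile normalization and 1 model over all libraries. The change of the polysomal share between stages gained 2 genes, Vamp2 and Syt1, with quantile normalization and the replicate block. The causes were not tested.

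Leaving out 1 library at a time, the genes called in SMA against control ranged from 0 to 1 in total RNA and 0 to 2 in polysomal RNA on day 5, and from 0 to 2 in each fraction on day 7. TE gave 0 to 2 on day 5 and 0 to 1 on day 7. Polysomal against total RNA gave 3 to 5 on day 5 and 3 to 6 on day 7, and its change between stages 0 to 2. Day 7 against day 5 gave 5 to 7 in control total, 3 to 5 in control polysomal, 5 to 7 in SMA total and 6 to 7 in SMA polysomal RNA. The difference in stage change between genotypes gave 0 to 2 in total and 0 to 1 in polysomal RNA. Without control mouse 1 of day 7 the stage count was 7 in control total and 5 in control polysomal RNA, and without both its libraries polysomal against total RNA on day 7 gave 4. Where a group of 2 lost a library, the lone sample was assumed to vary like the other group. No depth was used, and 2 or 3 mice per group limit the precision, most of all for Vamp1 and Syt2.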
